A study of Mus musculus with 13 samples.

Results

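Interferon-stimulated genes, a set of 33 genes listed by symbol for their known induction by interferon, were compared between young and aged mouse jaw joint cartilage. Of these, 31 were matched by symbol among the 18748 genes of the deposited table, and Mx1 and Mx2 were not analysed here. All 31 matched genes passed the filter on low counts, which kept 14067 genes for testing. The cartilage came from the mandibular condyle, the head of the lower jaw that moves in the temporomandibular joint. Young mice were 2 months old (7 libraries) and aged mice 18 months old (6 libraries), and the labels used here name no treatment, genotype, strain or sex for either age. They also do not say whether each library came from a separate mouse, so p-values measure only the spread between these libraries. RNA with poly(A) tails was sequenced in bulk, so fewer cells of a type and less RNA per cell cannot be told apart. Expected counts summed to between 17531694 and 18203443 in the young libraries and to between 16356839 and 17876681 in the aged libraries. The interferon-stimulated genes had from 12 counts (Zbp1) to 2089 counts (Samhd1) in a library.

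Interferons are secreted proteins that warn cells of infection. Type I interferons bind the receptor made of Ifnar1 and Ifnar2, whose kinases Jak1 and Tyk2 signal to a complex that holds Stat2 and Irf9. This complex binds the interferon-stimulated response element in the promoters of its target genes. Interferon gamma acts through its own receptor and another promoter element, the gamma-activated site. The products of the target genes sense foreign RNA and DNA, degrade viral RNA, block protein synthesis and tag proteins with ubiquitin-like Isg15. In skeletal tissue interferon beta is known as a brake on the formation of osteoclasts, the cells that resorb bone.

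The response was uneven, with a few large rises and many small differences. The largest rises in aged cartilage were in Oas3, Rsad2 and Isg15, which were 2.15 ± 0.35, 1.73 ± 0.30 and 1.46 ± 0.28 higher on the log2 scale (estimate ± SE, 7 young and 6 aged libraries). Only Ifi44 fell, by 0.89 ± 0.21. Of the 31 genes, 12 rose (38.7%) and 1 fell (3.23%) at an adjusted p under 0.05 (edgeR's quasi-likelihood test, with p adjusted by Benjamini-Hochberg over all tested genes), and 18 did not pass. Among all 14067 tested genes 24.7% rose and 21.6% fell, 46.2% together, against 41.9% of the interferon-stimulated genes. The share of called genes was therefore near that of all genes. The median log2 fold change of the 31 genes was 0.30, beside 0.014 over all tested genes, and 26 of the 31 estimates lay above 0. At least 2-fold rises were called in 3 of the 31 (9.68%), against 8.67% of all genes, and none fell as far, against 2.89%. The levels of the 2 ages did not overlap in 3 of the 31, Oas3, Oas1a and Ifi35 (9.68%), against 19.2% of all genes. Scaled by library size alone, a scaling that moved the median of all tested genes to 0.24, 23 of the 31 rose and 1 fell, while 58.9% of all genes passed and 50% rose. Under that scaling 4 of the 5 estimates below 0, those of Ifi27, Oasl2, Eif2ak2 and Gbp3, lay above 0. Red blood cell and neutrophil markers were also higher in the aged libraries and highest in those with the highest Oas3, Rsad2 and Isg15, as given below with their values.

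**Figure D1:**
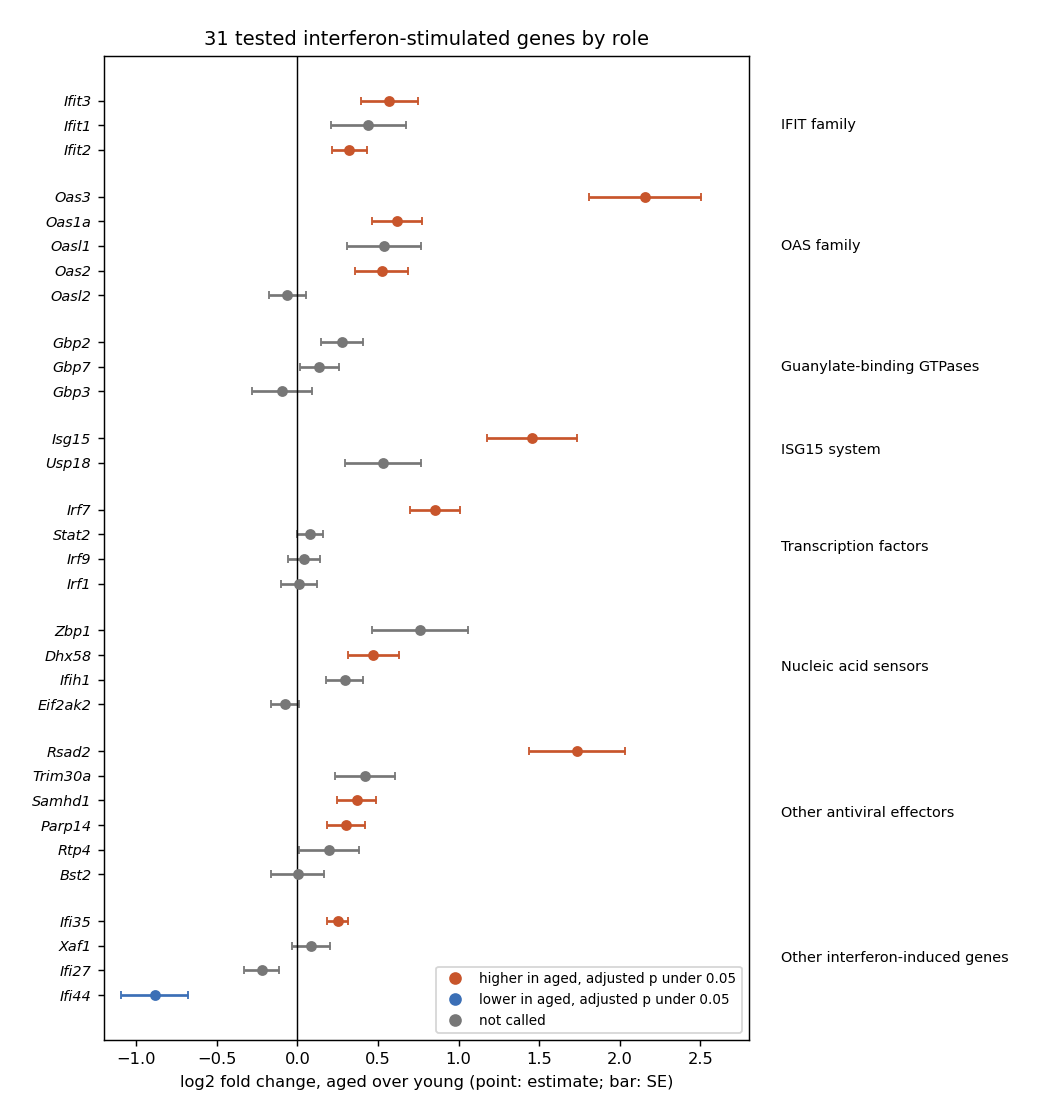
Log2 fold change of each of the 31 tested interferon-stimulated genes, aged over young, grouped by role; points are edgeR estimates and bars are standard errors. Oas3, Rsad2 and Isg15 lie farthest to the right at 2.15, 1.73 and 1.46, Ifi44 lies at −0.89, and 18 genes in grey did not pass the test.

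Promoter sequence was read for the genes with the largest changes, since the response element is the feature by which interferon acts on them. RefSeq promoter windows of the build GRCm38.p6, from 250 bases before to 50 bases after the start of the gene, were matched for 24 of the 31 genes. The core of the response element was searched as GAAANNGAAA on both strands, which reads TTTCNNTTTC on the other strand. It was found in 14 of the 24 genes (58.3%), against 3.99% of the 27025 genes with a window. The gamma-activated site, searched as TTCNNNGAA, which reads the same on both strands, was found in 8 of the 24 (33.3%), against 9.55% of all genes. The stretches below run 5′ to 3′ on the strand of the gene and end at the base before its start, except that of Ifit3, which runs from 166 to 47 bases before it. Capitals mark matches to the core, which overlap one another in Isg15 and Oas1a.
Isg15, chr4:156200819-156200938, minus strand: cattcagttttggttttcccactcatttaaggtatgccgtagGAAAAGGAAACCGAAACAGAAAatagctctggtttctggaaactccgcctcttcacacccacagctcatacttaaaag
Oas3, chr5:120777660-120777779, minus strand: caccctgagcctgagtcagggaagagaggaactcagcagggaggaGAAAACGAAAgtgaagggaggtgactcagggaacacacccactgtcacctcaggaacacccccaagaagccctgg
Rsad2, chr12:26456453-26456572, minus strand: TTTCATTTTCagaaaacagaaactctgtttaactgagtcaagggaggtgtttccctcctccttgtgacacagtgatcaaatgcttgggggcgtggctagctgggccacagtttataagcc
Oas1a, chr5:120907526-120907645, minus strand: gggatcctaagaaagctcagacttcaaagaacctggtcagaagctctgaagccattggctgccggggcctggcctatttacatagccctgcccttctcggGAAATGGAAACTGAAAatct
Ifit3, chr19:34583363-34583482, plus strand: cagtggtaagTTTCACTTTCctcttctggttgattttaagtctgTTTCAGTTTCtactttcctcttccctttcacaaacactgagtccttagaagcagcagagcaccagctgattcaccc
Irf7, chr7:141266425-141266544, minus strand: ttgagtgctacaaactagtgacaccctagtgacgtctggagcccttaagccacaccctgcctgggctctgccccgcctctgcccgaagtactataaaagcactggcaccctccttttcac
Ifi44, chr3:151749911-151750030, minus strand: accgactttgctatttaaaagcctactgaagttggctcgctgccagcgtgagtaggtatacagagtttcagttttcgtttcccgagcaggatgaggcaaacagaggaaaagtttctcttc
Isg15 held 3 matches, Oas1a and Ifit3 held 2 each, Oas3 and Rsad2 held 1 each, and Irf7 and Ifi44 held none of these letters in the window. Genes that did not pass the test carried the core too. It was found in 5 of the 9 risen genes with a window (Ifit3, Oas1a, Oas3, Isg15 and Rsad2) and in 9 of the 14 that did not pass, among them Ifit1, Stat2, Ifih1, Bst2 and Eif2ak2. A match of letters is a description of sequence and not a site of binding.

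The oligoadenylate synthetases make a second messenger, 2′-5′-linked oligoadenylate, when they meet double-stranded RNA, and this activates the RNA-cutting enzyme RNase L. Of the 5 family members tested, 3 rose, none fell, and the median log2 fold change was 0.54. Oas3 (gene ID 246727), the largest of the enzymes, ranged from 2.16 over a median of 2.65 to 3.80 TMM-normalised CPM (counts scaled to a common library total) in young libraries and from 4.13 over 12.7 to 20.5 CPM in aged libraries. The ages did not overlap, but the aged libraries fell apart among themselves. Aged libraries 1, 4 and 6 held 20.5, 17.9 and 17.5 CPM, libraries 2 and 5 held 6.16 and 7.87 CPM, and library 3 lay just above the highest young library. The rise was 2.15 ± 0.35 on the log2 scale (edgeR adjusted p = 0.000235).

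Oas1a (246730), a smaller synthetase, ranged from 1.69 over 2.28 to 2.78 CPM in young and from 2.83 over 3.58 to 3.94 CPM in aged libraries. All aged libraries lay above all young ones, with a narrow gap between them, and the rise was 0.62 ± 0.15 (adjusted p = 0.00448). Oas2 (246728), the middle-sized synthetase, ranged from 2.77 over 3.77 to 4.32 CPM in young and from 3.91 over 4.73 to 7.58 CPM in aged libraries. The ages overlapped through aged library 5, while aged libraries 1 and 2 stood above the rest, and the rise was 0.52 ± 0.16 (adjusted p = 0.0178). Oasl1 and Oasl2 are the synthetase-like proteins of the family. Oasl1 differed by 0.54 ± 0.23 (adjusted p = 0.0693) and Oasl2 by −0.06 ± 0.11 (adjusted p = 0.680), and neither passed. By length-normalised level (FPKM) Oasl2 was the family's most abundant member, at 3.79 ± 0.378 in young and 4.19 ± 0.820 in aged libraries (mean ± SD), while Oas3 was the lowest of all 31 genes in young libraries at 0.591 ± 0.130.

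Isg15 is a ubiquitin-like protein that is joined to other proteins during an interferon response, and Usp18 removes it and also restrains the type I receptor. Isg15 (100038882) ranged from 1.86 over 2.57 to 3.28 CPM in young and from 2.72 over 8.04 to 10.6 CPM in aged libraries. Aged libraries 1, 4 and 6 were again the highest, at 9.95, 9.70 and 10.6 CPM, and aged library 3 lay within the young range. The rise was 1.46 ± 0.28 (adjusted p = 0.000854). Usp18 differed by 0.53 ± 0.24 and did not pass (adjusted p = 0.0804). Uba7, the enzyme that activates Isg15, belongs to the list of further interferon-stimulated genes treated below and rose by 0.96 ± 0.12 (adjusted p = 3.1e-05).

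Among the other antiviral effectors, 3 of 6 rose and none fell, with a median log2 fold change of 0.33. Rsad2 (58185), the radical SAM enzyme viperin that makes a chain-terminating nucleotide, ranged from 7.78 over 9.97 to 10.6 CPM in young and from 8.71 over 32.97 to 46.5 CPM in aged libraries. The pattern was that of Oas3 and Isg15, with aged libraries 1, 4 and 6 at 46.5, 41.9 and 44.3 CPM, libraries 2 and 5 in between at 24.1 and 23.2 CPM, and library 3 inside the young range. The rise was 1.73 ± 0.30 (adjusted p = 0.000393). Samhd1, which breaks down the nucleotides that retroviruses need, rose by 0.37 ± 0.12 (adjusted p = 0.0226). Its mean was 17.7 ± 2.00 FPKM in young and 26.5 ± 6.32 FPKM in aged libraries, on a scale that itself shifted between ages. Parp14, an ADP-ribosyltransferase, rose by 0.30 ± 0.12 (adjusted p = 0.0470), a call that was lost when any 1 of 9 of the 13 libraries was left out. Without aged library 1 or without aged library 6 Samhd1 did not pass either.

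The antiviral genes that did not pass covered a wide range of levels. Bst2, or tetherin, which holds budding virus particles at the cell surface, was the most abundant effector in young libraries at 22.3 ± 3.35 FPKM, and stood at 24.6 ± 7.58 FPKM in aged libraries, where the mean of Samhd1 was higher. Its log2 fold change was 0.0017 ± 0.17 (adjusted p = 0.994). Trim30a, a tripartite motif protein, differed by 0.42 ± 0.19 (adjusted p = 0.0817). Rtp4, a receptor transporter protein, differed by 0.20 ± 0.19 (adjusted p = 0.412). Trim30a shares much of its sequence with Trim30d, so reads may be split between them.

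The IFIT proteins bind viral RNA with unusual ends and block its translation, and 2 of the 3 tested rose, with a median of 0.44. Ifit3 (15959), which stabilises the complex of these proteins, ranged from 3.37 over 5.16 to 7.00 CPM in young and from 5.61 over 7.07 to 10.4 CPM in aged libraries. The ages overlapped, and the highest libraries were aged 5 and aged 2, not the libraries 1, 4 and 6 that led for Oas3. Its rise was 0.57 ± 0.18 (adjusted p = 0.0179), and its near-identical copy Ifit3b rose by 1.302 ± 0.28, so the split of reads between the pair is uncertain. Ifit2 rose by 0.32 ± 0.11 (adjusted p = 0.0228), a call lost without aged library 4 or without aged library 5. Ifit1, which binds RNA caps that lack a methyl mark, differed by 0.44 ± 0.23 and did not pass (adjusted p = 0.138).

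**Figure D2:**
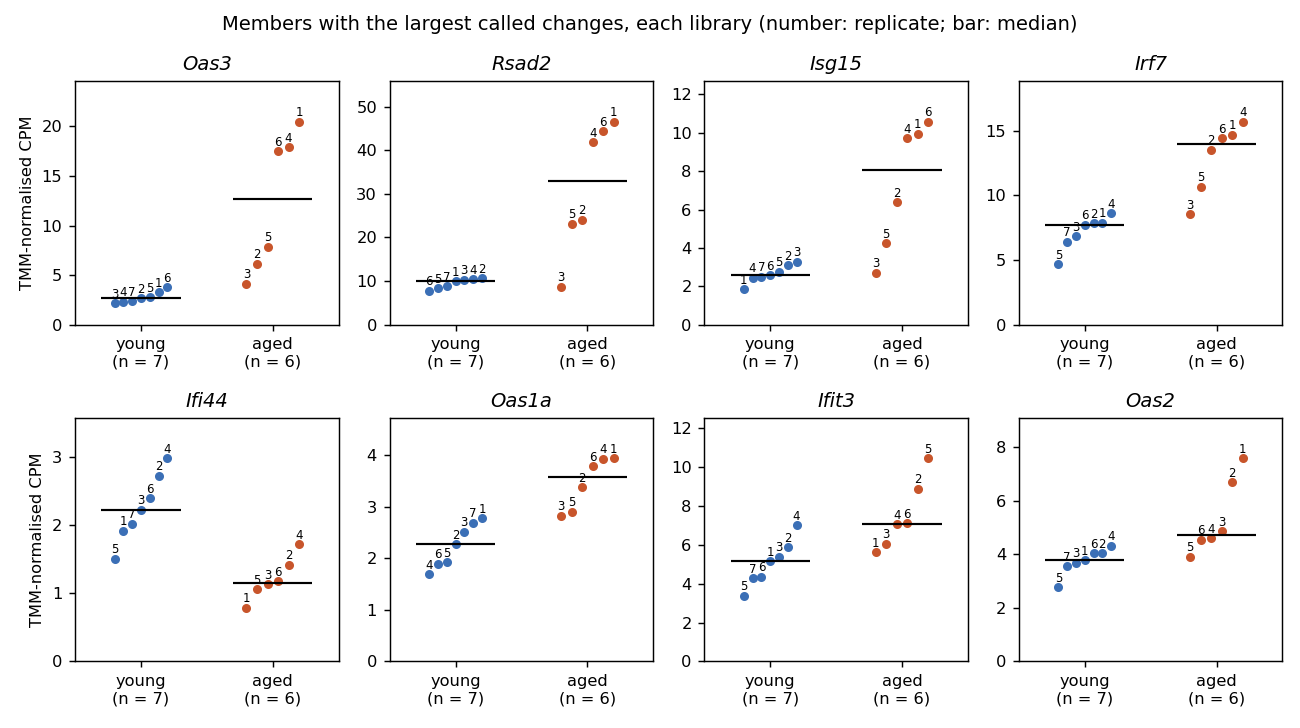
TMM-normalised CPM in every library for the 8 called genes with the largest changes; points are libraries, numbers are replicate numbers and bars are medians of 7 young and 6 aged libraries. Aged libraries 1, 4 and 6 lead for Oas3, Rsad2 and Isg15, whereas aged 5 and 2 lead for Ifit3 and every aged library lies above every young one for Oas1a.

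The transcription factors that carry the signal hardly moved apart from Irf7. Irf7 (54123), the factor that amplifies type I interferon production, ranged from 4.70 over 7.71 to 8.63 CPM in young and from 8.54 over 13.96 to 15.7 CPM in aged libraries. Aged library 3 reached just below the highest young library, and the other aged libraries lay above all young ones. The rise was 0.85 ± 0.16 (adjusted p = 0.000587). The differences of the other factors were small: 0.08 ± 0.08 for Stat2, 0.04 ± 0.10 for Irf9 and 0.01 ± 0.11 for Irf1, with adjusted p of 0.464, 0.766 and 0.951. Irf1, which acts mainly downstream of interferon gamma, was the most abundant of them, at 17.0 ± 2.77 FPKM in young and 19.8 ± 3.93 FPKM in aged libraries.

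Among the nucleic acid sensors, 1 of 4 rose and none fell. Dhx58, or LGP2, a helicase that tunes the response to viral RNA, rose by 0.47 ± 0.16 (adjusted p = 0.0246), and did not pass without aged library 1 or without aged library 6. Ifih1, or MDA5, which senses long double-stranded RNA, differed by 0.29 ± 0.12, and Zbp1, which senses left-handed nucleic acid and starts cell death, by 0.76 ± 0.30. Both lay just outside the threshold in edgeR (adjusted p = 0.0501 and 0.0502), and their calls depended on the method. Both passed in DESeq2 (adjusted p = 0.0418 and 0.0385). In limma-voom Ifih1 passed (adjusted p = 0.0430) and Zbp1 did not (adjusted p = 0.0653). In edgeR without the filter on low counts neither passed (adjusted p = 0.0604 and 0.0585). Eif2ak2, or PKR, the kinase that stops translation, was the most abundant sensor at 6.15 ± 0.752 FPKM in young and 6.96 ± 0.803 FPKM in aged libraries, and its log2 fold change was −0.08 ± 0.09 (adjusted p = 0.492).

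None of the 3 guanylate-binding proteins tested passed in edgeR or DESeq2, and 0 had an unadjusted p under 0.05 in edgeR. Under the scalings that raise the median of all genes Gbp2 and Gbp7 did pass, at 0.51 (adjusted p = 0.00558) and 0.37 (adjusted p = 0.0244) with library sizes alone, and also with limma on log2 FPKM. These large GTPases attack the membranes of intracellular pathogens and respond most to interferon gamma. Gbp2, the most abundant at 4.28 ± 0.493 FPKM in young and 6.01 ± 1.501 FPKM in aged libraries, differed by 0.28 ± 0.13 (adjusted p = 0.0945). Gbp7 differed by 0.14 ± 0.12 (adjusted p = 0.369) and Gbp3 by −0.10 ± 0.18 (adjusted p = 0.701). All 3 were highest in aged library 2. Reads can be shared between members of this family.

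The remaining interferon-induced genes moved in both directions. Ifi44 (99899), a gene of little known function that is used as a marker of the response, ranged from 1.505 over 2.22 to 2.97 CPM in young and from 0.788 over 1.15 to 1.72 CPM in aged libraries. The ages overlapped only through young library 5 and aged library 4, and the counts behind these values were low, from 16 to 51 in a library. The fall was 0.89 ± 0.21 on the log2 scale (adjusted p = 0.00302). Ifi35, which binds its partner Nmi, ranged from 10.6 over 11.8 to 12.5 CPM in young and from 13.03 over 13.7 to 14.8 CPM in aged libraries. It had the smallest standard error of the 12 risen genes. No library overlapped with the other age, and the rise was 0.25 ± 0.06 (adjusted p = 0.00492). Ifi27, a protein of the mitochondrial and nuclear membrane, was the most abundant of all 31 genes, at 67.9 ± 5.87 FPKM in young and 65.2 ± 10.8 FPKM in aged libraries, and differed by −0.22 ± 0.11 (adjusted p = 0.111). Xaf1, a pro-apoptotic protein, differed by 0.08 ± 0.12 (adjusted p = 0.582).

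In order of FPKM within an age, Ifi27, Bst2, Samhd1 and Irf1 held the first 4 places in young cartilage and the same 4 genes held them in aged cartilage. Bst2 and Samhd1 changed places, and at 22.3 ± 3.35 and 17.7 ± 2.00 FPKM in young, and 24.6 ± 7.58 and 26.5 ± 6.32 FPKM in aged libraries, neighbouring means lay close to or within their spread. Isg15 moved from place 9 to 5, Rsad2 from 19 to 8 and Oas3 from 31 to 20, while Ifi44 moved from 28 to the last place. The FPKM scale itself shifted between ages, with a median log2 difference of 0.17 over all tested genes, so only the order within an age is compared here.

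The aged libraries did not carry a single pattern. Over Oas3, Rsad2, Isg15 and Irf7, a group chosen after their values were seen, the mean log2 deviation from the average library was 1.38, 1.31 and 1.32 in aged libraries 1, 4 and 6, 0.53 and 0.37 in libraries 2 and 5, and −0.44 in library 3. The young libraries lay between −0.80 and −0.51. Over the other 27 genes the ages overlapped, with −0.37 to 0.07 in young and −0.08 to 0.33 in aged libraries. Aged library 2 held the highest value of 11 genes, among them all 3 guanylate-binding proteins, Stat2, Irf1, Bst2 and Zbp1. Aged library 1 was highest for 6 genes, including 4 of the OAS family, and young library 5 was lowest for 11. Without aged library 3, 16 of the 31 genes passed the test, while 46.1% of all genes did. Without aged library 1, 10 of the 31 passed, while 45.1% of all genes did.

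**Figure D3:**
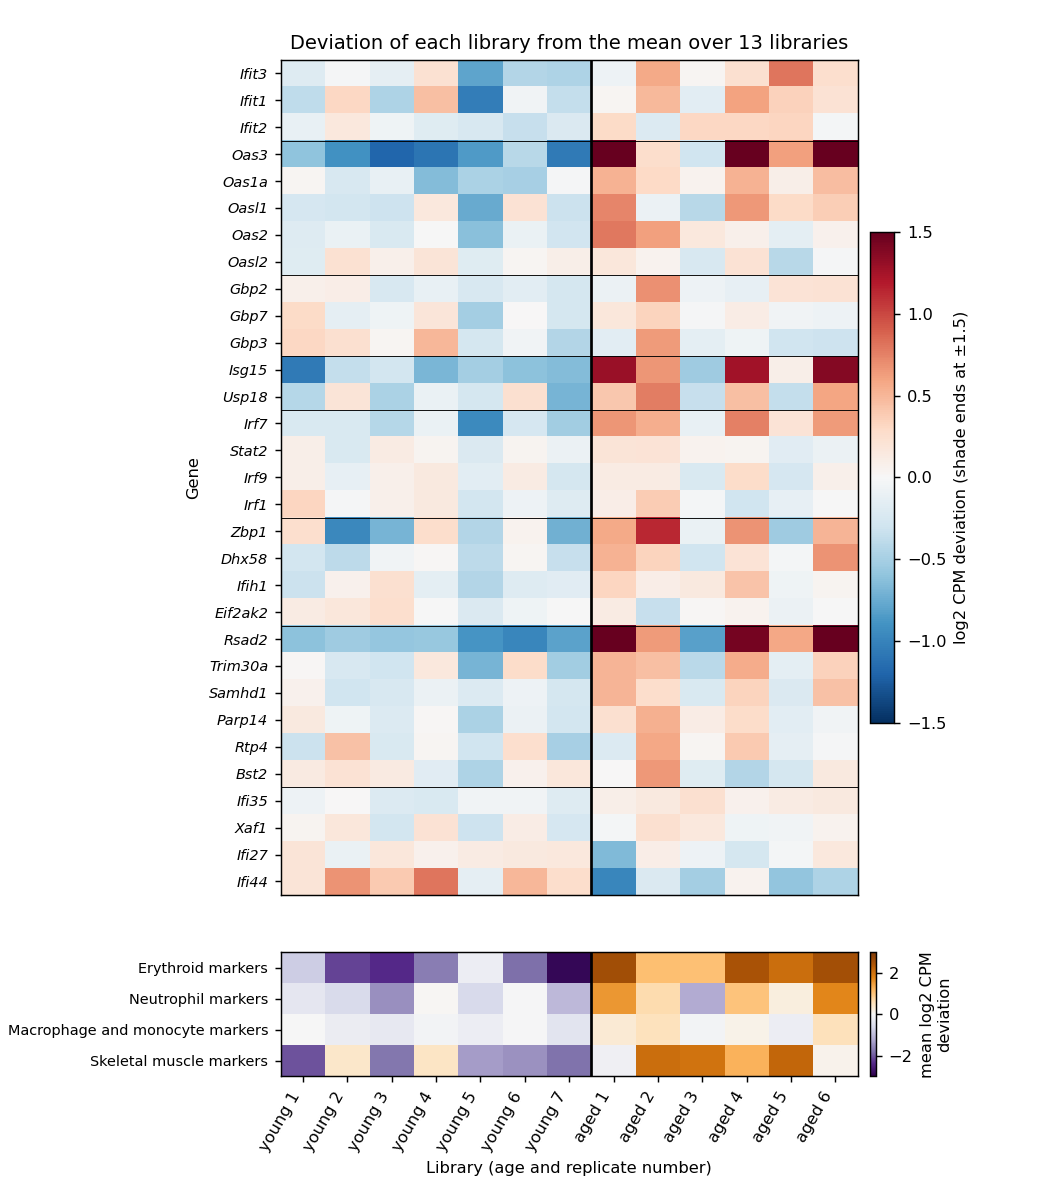
Deviation of each library from the mean over all 13 libraries, in log2 CPM, for the 31 genes by role (upper panel, shade ends at ±1.5) and as the mean over 4 lists of cell type markers (lower panel). Oas3, Isg15 and Rsad2 are darkest in aged libraries 1, 4 and 6, and the erythroid markers lie above 0 in all 6 aged and below 0 in all 7 young libraries.

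Markers of other cells moved with these genes. All 14 erythroid markers were higher in aged libraries, where their summed level was 764.7 to 2282 CPM against 55.5 to 307.1 CPM in young ones, and 11 of 14 neutrophil markers were higher (1238 to 6171 CPM against 624.8 to 1970 CPM). Both lists are genes of blood and bone marrow. Their joint score, the mean of both lists on the centred log2 CPM scale, was 2.07, 1.76 and 2.16 in aged libraries 1, 4 and 6, 0.86 and 1.15 in libraries 2 and 5, −0.06 in library 3, and −1.94 to −0.40 in young libraries. Among the aged libraries, 1, 4 and 6 were also highest for Oas3, Rsad2 and Isg15, and library 3 was lowest. Libraries 2 and 5 lay between them, but apart from each other for Isg15, at 6.37 and 4.24 CPM. The erythroid score alone grouped them otherwise, with 1.08 in library 2, 1.06 in library 3 and 2.08 in library 5. In the young libraries Oas3 spanned 2.16 to 3.80 CPM and the erythroid sum 55.5 to 307.1 CPM, below the lowest aged sum of 764.7 CPM. Young library 5 had the highest erythroid sum of its age and a neutrophil score of −0.61. It was the lowest library for 11 of the 31 genes. The cause was not tested. The joint score itself did not overlap between ages, so age and this score cannot be told apart in these libraries.

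**Figure D4:**
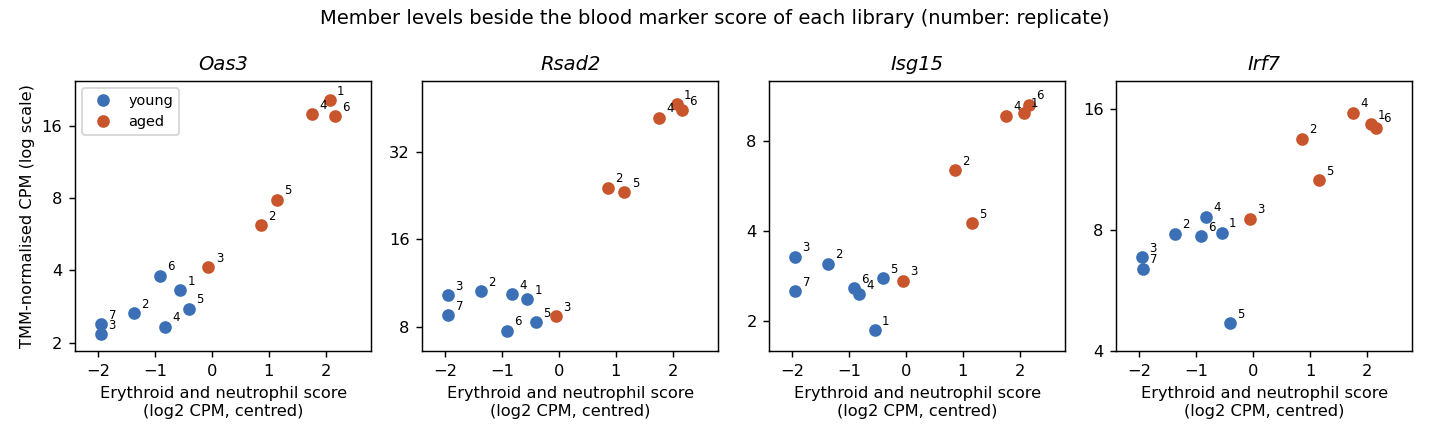
TMM-normalised CPM (log axis) of Oas3, Rsad2, Isg15 and Irf7 against the joint erythroid and neutrophil marker score of each library; numbers are replicate numbers. Aged libraries 1, 4 and 6 have the highest scores, 1.76 to 2.16, and the highest levels, and aged library 3 lies beside the young libraries.

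With the joint score as a further term in the model, none of the 31 genes passed (edgeR; 0 also at an unadjusted p under 0.05), while 19.1% of all genes did. Oas3 then differed by −0.09 (adjusted p = 0.913), Rsad2 by 0.08 (adjusted p = 0.933), Isg15 by 0.22 (adjusted p = 0.819) and Irf7 by 0.32 (adjusted p = 0.495). The neutrophil score overlapped between ages only through aged library 3, at −1.177. Every other aged library scored 0.22 or more, above the highest young score of 0.027. With neutrophil markers alone in the model, 5 genes rose and 1 fell, while 38.3% of all genes passed. In that fit Oas3 was 1.06 higher (adjusted p = 0.00552), Rsad2 0.77 (adjusted p = 0.0342) and Irf7 0.49 (adjusted p = 0.0188), and Isg15, at 0.69, did not pass (adjusted p = 0.0801). With erythroid markers alone none of the 31 genes passed (edgeR; 0 also at an unadjusted p under 0.05) and 2.99% of all genes did.

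Macrophage and monocyte markers were less uniform: 6 of 13 rose, led by the monocyte genes Ly6c2 and Ccr2 at 1.79 ± 0.33 and 1.54 ± 0.29, and 3 fell, Csf1r, Cd68 and Mertk. Their sum was 934.9 to 1205 CPM in young and 969.3 to 2022 CPM in aged libraries. With their score in the model 5 of the 31 genes rose and 1 fell, while 31.8% of all genes passed, with Oas3 at 1.59, Rsad2 at 1.24 and Irf7 at 0.56 still called, and Isg15 at 0.92 not called (adjusted p = 0.0660). Of skeletal muscle markers 14 of 15 rose, with sums of 677.4 to 5779 CPM in young and 4566 to 18129 CPM in aged libraries. With the muscle score in the model 7 genes rose and 1 fell, while 25.6% of all genes passed, and the estimates of Oas3, Rsad2 and Isg15 were larger, at 3.03, 2.19 and 1.94.

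**Figure D5:**
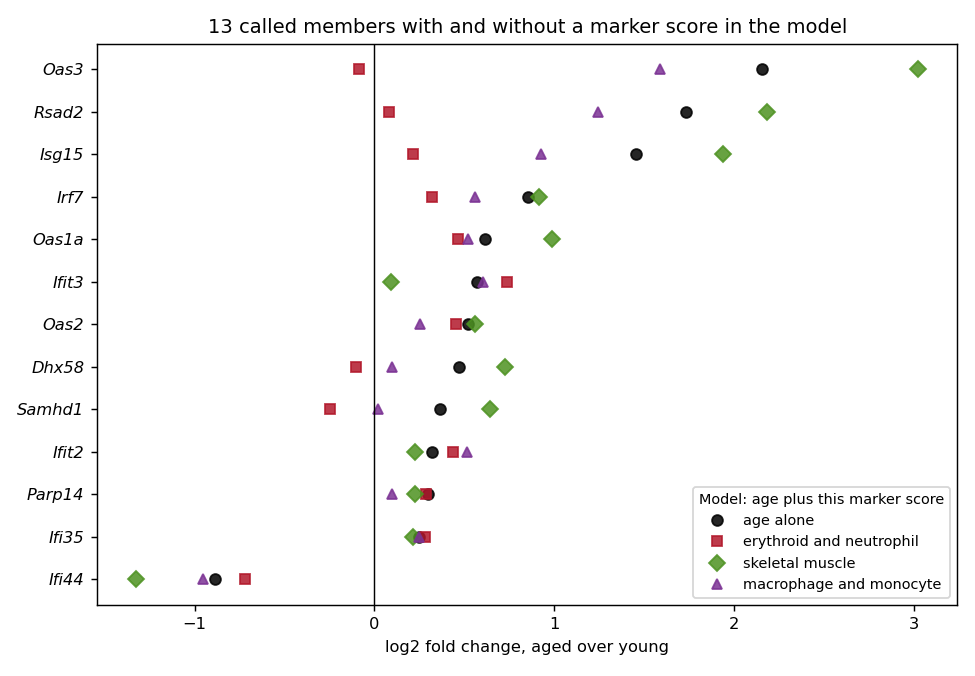
Log2 fold change, aged over young, of the 13 called genes in the model with age alone (black circles) and with a score of erythroid and neutrophil, skeletal muscle, or macrophage and monocyte markers as a further term. Oas3 lies at 2.15 with age alone, at −0.09 with the erythroid and neutrophil score and at 3.03 with the muscle score.

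Other marker lists varied too. Plasmacytoid dendritic cells are the classical producers of type I interferon. Of 4 tested markers of these cells, Siglech and Ccr9 rose, by 1.17 ± 0.32 and 1.25 ± 0.43, and Pacsin1 fell. The sum of the 5 listed markers was 60.4 to 91.8 CPM in young and 22.0 to 90.7 CPM in aged libraries. Spib and Pacsin1 made up most of it, with means of 44.4 and 31.8 CPM in young libraries. Siglech and Ccr9 had means of 2.06 and 0.431 CPM there. Of 10 markers of T and natural killer cells 4 passed the filter, of which Cd8a, Nkg7 and Il2rb rose, by 1.65 ± 0.35, 1.71 ± 0.29 and 1.71 ± 0.27, and Cd4 fell. Their sum was 15.4 to 18.4 CPM in young and 16.8 to 32.9 CPM in aged libraries. The defining T cell genes Cd3d, Cd3e and Cd3g were under the filter, and each was at most 0.464 CPM in young libraries and at least 0.502 CPM in aged ones. All 6 tested mast cell markers rose, with a median log2 fold change of 2.15 and sums of 8.91 to 15.4 CPM in young and 15.9 to 39.3 CPM in aged libraries. Of 8 B cell markers 1 fell, Pax5, and none rose, with a median of −0.78 and sums of 130.8 to 258.02 CPM against 30.3 to 194.6 CPM. Of 6 endothelial markers Vwf rose and Tek and Emcn fell, and the sums overlapped, at 326.9 to 492.7 CPM and 350.03 to 500.8 CPM. Chondrocyte genes, the markers of the labelled tissue, summed to 25615 to 40463 CPM in young and to 11637 to 25376 CPM in aged libraries. Of the 8 tested, 5 fell, 1 rose, and Acan and Sox9 did not pass. Col2a1 made up most of the sum in young libraries, with means of 25340 CPM there and 6835.5 CPM in aged ones. Cnmd, Col9a1 and Matn3 fell furthest, with log2 fold changes of −5.398, −5.06 and −4.22, and Comp rose by 1.02. Osteoblast genes, which mark bone, summed to 104160 to 125430 CPM in young and to 26342 to 37718 CPM in aged libraries, and all 6 of them fell. The part of these cell types in the differences of the interferon-stimulated genes was not tested beyond the fits above.

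The genes upstream of the response were described from lists chosen for their place in the pathway. Of 20 interferon genes, 3 were analysed (Ifnab, Ifnz and Ifng) and none passed the filter, with at most 1, 8 and 2 counts in any library. Receptor chains and kinases moved in both directions. Ifnar1, the chain that binds Tyk2, fell by 0.22 ± 0.05 (adjusted p = 0.00126), and Ifnar2, its partner, differed by 0.03 (adjusted p = 0.732). The interferon gamma receptor chains Ifngr1 and Ifngr2 fell by 0.21 ± 0.07 and 0.20 ± 0.07. Ifnlr1, the lambda receptor chain, rose by 0.70 ± 0.26 and Tyk2 by 0.18 ± 0.06.

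Of 13 feedback regulators and other interferon regulatory factors, 4 rose and 3 fell. The largest rises were in Ptpn6, the phosphatase SHP-1 of blood cells, at 0.84 ± 0.20, and in Irf8, a factor of myeloid cells, at 0.75 ± 0.24. The largest falls were in Socs1, a direct inhibitor of the receptor kinases, by 0.53 ± 0.13, and in Irf2bp2, by 0.29 ± 0.09. Of 18 tested genes of the sensing pathways that switch interferon on, 8 rose and 3 fell. Tlr8 and Tlr9, endosomal receptors for RNA and DNA, rose by 0.87 and 0.82, and Ticam1 and Tlr3, an adaptor and the double-stranded RNA receptor it serves, fell by 0.40 and 0.24.

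A wider list of further interferon-stimulated genes held 57 tested genes, of which 22 rose (38.6%) and none fell, beside 24.7% and 21.6% of all genes. The largest rises were in Ifi211, a DNA-binding protein of the HIN-200 family, at 1.37 ± 0.21 (adjusted p = 0.000131), and in Ifit3b at 1.302 ± 0.28 (adjusted p = 0.00174). Over all 5 lists 46 genes passed the test. With the joint erythroid and neutrophil score in the model 3 of the list genes passed.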

How the data were processed

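RNA sequencing of 7 young and 6 aged libraries was analysed from 1 deposited table. The authors deposited expected counts, FPKM and TPM per gene and library, per the file headers, and 5.3% of the count values were not whole. FPKM and TPM were normalised by the authors for gene length and depth, and TPM was not used here. The submitters' processing notes name build GRCm39 and the tools RSEM 1.3.1, Bowtie2 2.3.4.3, HISAT2 2.1.0 and, with no role stated, DESeq2 1.4.5; which annotation was used is not stated there. Poly(A) RNA was enriched on beads and read from both ends with strand kept, per the labels' protocols.

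Rounded counts went into edgeR 4.0.16 under R 4.3.3 (filterByExpr, minimum count 10 and total 15; TMM; robust quasi-likelihood fit; Benjamini-Hochberg adjustment over 14067 genes, threshold 0.05). Differences are log2 fold changes, aged over young. A library's deviation is its log2 CPM (prior count 2) minus the mean over 13 libraries. Marker scores average such deviations over a list. Alternatives used limma 3.58.1 (also on log2 FPKM with a pseudocount of 1 or 0.1) and DESeq2 1.42.0. Of these, the fits with erythroid or neutrophil markers alone were added after the data were seen. Figures were drawn with matplotlib 3.10.9. Tested on simulated data for aged against young with 14067 genes, 60% of genes made to change 1.5-fold were recovered, as were 88% of those changed 2-fold and 98% of those changed 4-fold. False calls made up 4.97% of the calls. In the simulation 50 genes were changed at each size, up and down, and genes of the lowest levels were not chosen. That is far fewer than the 46.2% of genes called in these data, so these shares may not carry over. No libraries of an age were duplicates: every one of 36 pairs differed beyond sampling noise, with a chi-square per degree of freedom of at least 10.1.

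Members, lists and tests were chosen with earlier results of these data known. Every matched gene is given. Library values were set out for called genes with at least a 2-fold change, or, as here, for the 8 called genes with the largest change; the most abundant gene of each role was described too. From each pathway list the 2 largest called rises and falls were named, with Ifnar1 and Ifnar2; Uba7, Tyk2, Ifngr2 and the marker genes were named after their values were seen. In the list of receptors and kinases, 1 gene and the list's count of calls are not reported here. Promoter windows come from RefSeq on GRCm38.p6, another build than that of the counts.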

Additional observations from a re-analysis of the deposited data

Results flagged for a closer look

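Among the 6 aged libraries, aged library 2 stood apart for a pair of guanylate-binding proteins. Gbp2 was at 17.1 CPM in it, with the next aged library at 12.3 CPM, a gap of 0.651 of the whole range of the aged libraries. Gbp3 was at 11.4 CPM, with the next at 6.93 CPM, a gap of 0.801 of the range. Both gaps were above Dixon's 95% critical value for 6 libraries. The check covered 62 groups, the 31 genes in each age, and chance alone passes about 1 in 20 groups. The same library was the highest for 11 of the 31 genes.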

How the results depend on the processing

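The number of interferon-stimulated genes past the threshold, 13 with TMM, was 24 with library sizes alone and 22 with limma on log2(FPKM + 1) and on log2(FPKM + 0.1). These scalings raise the median of all tested genes to 0.24, 0.17 and 0.21, with 58.9%, 54.1% and 54% of all genes called, and with library sizes alone 7034 genes rose and 1253 fell, against 3471 and 3033 with TMM. It was 0 with the erythroid and neutrophil score, 0 with erythroid markers alone, 6 with neutrophil markers alone, 6 with the macrophage score and 8 with the muscle score. The count changed at least 2-fold, 3 with TMM, was 0, 0 and 1 with the joint, erythroid and neutrophil terms. The 46 called pathway genes became 3, 0, 25, 21 and 21 in the same order. The cause was not tested. Leaving out each library in turn gave 10 to 16 genes, 3 to 4 with at least 2-fold changes, and 37 to 47 pathway genes. Between 42% and 46.1% of all tested genes passed in these fits. Oas3, Rsad2, Isg15, Irf7, Ifi44, Oas1a, Ifit3, Oas2 and Ifi35 stayed past the threshold without any 1 library.

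The labels do not say that replicate numbers pair the libraries. Same-numbered libraries deviated with correlations of −0.12 to 0.26 over 6 pairs, and 2 of 6 aged libraries correlated best with their own number. So few pairs cannot show whether libraries were paired. With the number as a replicate block 11 genes passed, with Dhx58, Ifit2 and Ifit3 lost and Trim30a gained, while 41.2% of all genes passed. In that fit 3 changed at least 2-fold, 39 pathway genes passed, and Irf1 (−0.026) and Irf9 (−0.0050) turned sign.

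Of 434 values of single genes under 14 other settings, 307 kept their direction and call, 45 lost the call, 36 gained it and 46 changed sign. Of 403 values with 1 library left out, these numbers were 363, 15, 14 and 11. Signs turned, in log2 fold change, as follows. With library sizes alone Ifi27 was at 0.0067, Oasl2 at 0.17, Eif2ak2 at 0.15 and Gbp3 at 0.14. With log2(FPKM + 1) Oasl2 was at 0.10, Eif2ak2 at 0.16 and Gbp3 at 0.077, and with log2(FPKM + 0.1) at 0.12, 0.18 and 0.10. Bst2 was at −0.00096 without the filter and at −0.023 with limma-voom. With the erythroid and neutrophil score Samhd1 was at −0.25, Trim30a at −0.30, Oasl1 at −0.33, Usp18 at −0.15, Dhx58 at −0.10, Oas3 at −0.088, Irf9 at −0.28 and Zbp1 at −0.067. With the erythroid score alone Samhd1 was at −0.15, Oasl1 at −0.051, Oasl2 at 0.10, Oas3 at −0.12, Irf9 at −0.18 and Gbp3 at 0.23, and with the neutrophil score alone Trim30a was at −0.035, Irf1 at −0.031, Bst2 at −0.041 and Irf9 at −0.14. With the muscle score Rtp4 was at −0.24, Irf1 at −0.011, Eif2ak2 at 0.011, Xaf1 at −0.14 and Ifit1 at −0.074. With the macrophage score Trim30a was at −0.015, Gbp7 at −0.035, Irf1 at −0.20, Usp18 at −0.086, Stat2 at −0.021, Bst2 at −0.30, Irf9 at −0.17, Zbp1 at −0.045 and Xaf1 at −0.038. With 1 library left out Bst2 ranged from −0.17 to 0.075, Irf1 from −0.079 to 0.070, Irf9 from −0.018 to 0.089 and Oasl2 from −0.12 to 0.0033. Low counts limit the precision of Zbp1, Ifi44, Oasl1, Ifit1 and Usp18, each under 70 counts in every library.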
